A study of Homo sapiens with 9 samples.

Results

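The 40 genes described here are protein-coding genes of mitosis and the G2/M transition, among 18364 genes with values in the deposited table, and all 40 were found by symbol. LN229, a human glioblastoma cell line in wide use, was implanted intracranially in nude mice, and RNA of 9 terminal-stage tumours was sequenced. The 6 TAZ-4SA tumours came from LN229 cells carrying TAZ-4SA, and the 3 EV tumours from LN229 cells carrying the empty vector, with no other treatment or allele named for either group. TAZ, encoded by WWTR1, is a transcriptional co-activator that works with TEAD factors and is held in check by the Hippo kinases, and TAZ-4SA is known as a form that those kinases cannot restrain. Each group comes from 1 line, labelled LN229-4SA or LN229-EV, and nude mice lack T cells but keep other host immune cells. The comparison asks how mitotic genes differ between tumours of these lines. With 1 line per group, an effect of TAZ-4SA cannot be told apart from other differences between the lines.

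Entry into mitosis is driven by CDK1 with cyclin A and cyclin B, opposed by WEE1 and released by the CDC25 phosphatases. Chromosomes are then compacted by condensin and topoisomerase II, attached to the spindle at kinetochores, and held back by the spindle assembly checkpoint until the anaphase-promoting complex with CDC20 frees separase. Most of these genes are transcribed in late S phase and G2, under NF-Y at CCAAT boxes, and under MuvB complexes that bind the CHR element (TTTGAA) through LIN54, with MYBL2 and FOXM1 as activating partners. Glioblastoma is known for high levels of this programme, of which Ki-67 is the usual marker in pathology.

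Promoter sequences of this gene set were searched for CCAAT, the CHR letters TTTGAA and the TEAD core GGAATG. RefSeq promoters (GRCh38.p14, 250 bases before to 50 bases after the start site) were matched for 33 of the 40 genes, 45 promoters in all, and those not matched were AURKA, TPX2, BUB3, TTK, BIRC5, RACGAP1 and UBE2C. CCAAT, read on both strands, was present in a promoter of 25 of the 33 genes (75.8%), against 42.2% of the 13793 genes of the deposited table with a promoter. The CHR letters TTTGAA, on both strands, were present in 24 of 33 (72.7%), against 14.4%, and both motifs together in 17 of 33 (51.5%), against 5.9%. The TEAD core GGAATG, on both strands, was present in 6 of 33 (18.2%), against 15.6%. CCAAT can share end bases with either other motif, and each was counted on its own.

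The upstream 250 bases of 4 members are printed to show how these letters are arranged in genes that were higher in TAZ-4SA (ANLN, CCNA2 and TOP2A) and in one that was not called (CDC20). Capitals mark CCAAT or its reverse complement ATTGG, and TTTGAA or its reverse complement TTCAAA. The stretches are chr7:36389612-36389861 (plus strand), chr4:121823884-121824133 (minus strand), chr17:40417897-40418146 (minus strand) and chr1:43358731-43358980 (plus strand), each written 5′ to 3′ on the gene's strand.
ANLN: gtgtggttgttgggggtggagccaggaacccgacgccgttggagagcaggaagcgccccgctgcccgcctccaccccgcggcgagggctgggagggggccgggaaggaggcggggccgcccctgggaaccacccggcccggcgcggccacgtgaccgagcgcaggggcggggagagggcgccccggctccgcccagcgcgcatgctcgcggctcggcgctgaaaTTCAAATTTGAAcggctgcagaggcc
CCNA2: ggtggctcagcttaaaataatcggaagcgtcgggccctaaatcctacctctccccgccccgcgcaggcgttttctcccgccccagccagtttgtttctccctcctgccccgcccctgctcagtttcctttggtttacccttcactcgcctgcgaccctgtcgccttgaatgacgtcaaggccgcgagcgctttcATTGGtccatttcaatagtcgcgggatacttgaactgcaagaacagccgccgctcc
TOP2A: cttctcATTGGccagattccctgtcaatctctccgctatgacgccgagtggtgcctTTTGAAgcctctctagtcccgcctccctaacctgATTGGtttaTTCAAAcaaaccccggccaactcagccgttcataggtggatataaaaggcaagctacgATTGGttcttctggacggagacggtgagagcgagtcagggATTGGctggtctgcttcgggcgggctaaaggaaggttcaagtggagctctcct
CDC20: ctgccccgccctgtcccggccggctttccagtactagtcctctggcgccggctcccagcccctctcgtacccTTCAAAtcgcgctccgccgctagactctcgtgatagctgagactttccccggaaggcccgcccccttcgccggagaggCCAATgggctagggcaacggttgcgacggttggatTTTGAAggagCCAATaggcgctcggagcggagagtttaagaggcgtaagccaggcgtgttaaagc

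Counting the base before the start site as -1, ANLN held 2 adjoining copies of TTTGAA whose first bases lay at -26 and -20, and no match to CCAAT in the whole window. CCNA2 held 1 CCAAT at -56 and no match to these CHR letters. TOP2A held 4 CCAAT boxes, at -244, -160, -93 and -53, and 2 copies of TTTGAA, at -194 and -151. CDC20 held CCAAT at -100 and -55 and TTTGAA at -178 and -65. Among the 9 members called higher that had a promoter, 5 held CCAAT, 7 held TTTGAA and 4 (CENPE, CENPF, ECT2 and SMC4) held GGAATG. Among the 23 members tested but not called, 19 held CCAAT, 16 held TTTGAA and 2 (CDC25B and NUF2) held GGAATG. These matches describe the letters of the windows, and binding was not measured.

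The deposited values are log2 CPM, a read count relative to the size of its library, from which whole reads were recovered. Totals ran from 3144861 to 31468135 reads in TAZ-4SA and from 17314672 to 21576264 in EV, and each TAZ-4SA tumour left 2990 to 7365 genes without a read, each EV tumour 505 to 622. WWTR1 stood at 331 ± 74.6 CPM (SD, n = 6) with TAZ-4SA and at 119.6 ± 3.17 CPM (SD, n = 3) in EV, with no overlap (exact two-sided permutation p = 0.0119 over 84 assignments, the smallest it can give). The 8 markers of glioma lines and glia had a median log2 difference of -2.35, with EGFR and SOX9 called higher and NES and S100B lower by limma. Most of their summed level was VIM, at 1480 to 2910 CPM in TAZ-4SA and 1616 to 2092 CPM in EV. NES stood at 158 ± 60.5 and 1324 ± 35.1 CPM, S100B at 0 to 10.4 and 163 to 249.5 CPM, and EGFR at 279 to 512 and 8.15 to 12.4 CPM in TAZ-4SA and EV (these genes were chosen after their values were seen). OLIG2 and S100B had 0 reads in 3 TAZ-4SA tumours each and SOX2 in 2. Of the host lists, the 6 microglia and macrophage markers summed to 54.7 to 142 CPM in TAZ-4SA and 16.1 to 25.6 CPM in EV. Most of it was CD68 (32.9 to 142 and 12.6 to 22.7 CPM), the only one called of the 4 with enough reads to be tested. P2RY12 was at 0 in all 6 TAZ-4SA tumours, PTPRC and TYROBP in 5, ITGAM in 4 and CSF1R in 2. The sums of the other host lists overlapped between groups. In TAZ-4SA and EV, the 6 neuronal markers summed to 84.5 to 1330 CPM and 32.9 to 139 CPM. The 5 oligodendrocyte markers summed to 8.52 to 320.0 CPM (MOG and MOBP at 0 in all 6) and 192 to 275 CPM, and the 5 endothelial markers to 0 to 13.2 CPM and 9.48 to 14.6 CPM. Of these markers, 6 neuronal, 3 oligodendrocyte and 1 endothelial had enough reads to be tested. Among those tested, limma called only the neuronal SYT1 higher (25.4 to 198 and 3.26 to 10.1 CPM) and the oligodendrocyte MAG lower (0 to 4.48 and 35.4 to 51.2 CPM). The part of host cells in the results below was not tested.

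Of the 40 mitosis genes, 39 had enough reads to be tested (a mean of at least 1 CPM), and 10 of them (25.64%) had higher levels in TAZ-4SA at an adjusted p under 0.05 in limma, a linear model with shared variance estimates. Over all 15578 genes tested, 9.02% were called higher and 13.3% lower, and the counts by role below stand beside these shares. All 39 members had a mean of at least 10 CPM, while all genes tested reached down to 1 CPM. The shares were not matched by level. With EV replicate 1, 2 or 3 left out, the genes called higher were 827, 799 and 1029, and the genes called lower 872, 852 and 990, in place of 1405 and 2079, and 8 members were higher each time. No member was called lower by limma, where 2 (CDC25B and NCAPH) had a lower value at an unadjusted p under 0.05 and 13 a higher one, against 24.1% and 12.6% of all genes. Limma-voom on the recovered reads called 1 member lower without tumour weights (23.4% of all genes) and 5 with them (31.5% of all genes), and array weights in limma also gave 5 (36.1% of all genes). The same 3 fits called 12 (8.29% of all genes), 13 (16.3%) and 14 members (16.2%) higher. The 10 genes were ANLN, ECT2, CENPE, TTK, CCNA2, SMC4, TOP2A, SMC2, CENPF and MKI67, from 3.40 down to 0.91 on the log2 scale. They act in cytokinesis, at the kinetochore, in the checkpoint, in S and G2 phase kinase activity and in chromosome compaction. The other 29 tested members were not called, among them CDK1, both B cyclins, PLK1, both Aurora kinases, survivin (BIRC5) and CDC20.

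The median log2 difference over the 39 members was 0.28, with 22 positive and 17 negative values, and the median over all genes tested was -0.85. That all-gene shift depends on scaling, being -0.05 after quantile normalization, where 2042 genes were higher and 1626 lower in place of 1405 and 2079. In the authors' scaling 34 of the 39 members lay above the all-gene median. After quantile normalization 11 members were higher and none lower, including the same 10 genes. Groups did not overlap for 11 higher members (the 10 called and BUB3), against 10.8% of all genes, and for 2 lower members (CDC25C and NCAPH), against 21.3%. In bulk tumours, a difference in the share of dividing cells and one in RNA per cell cannot be told apart.

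**Figure D1:**
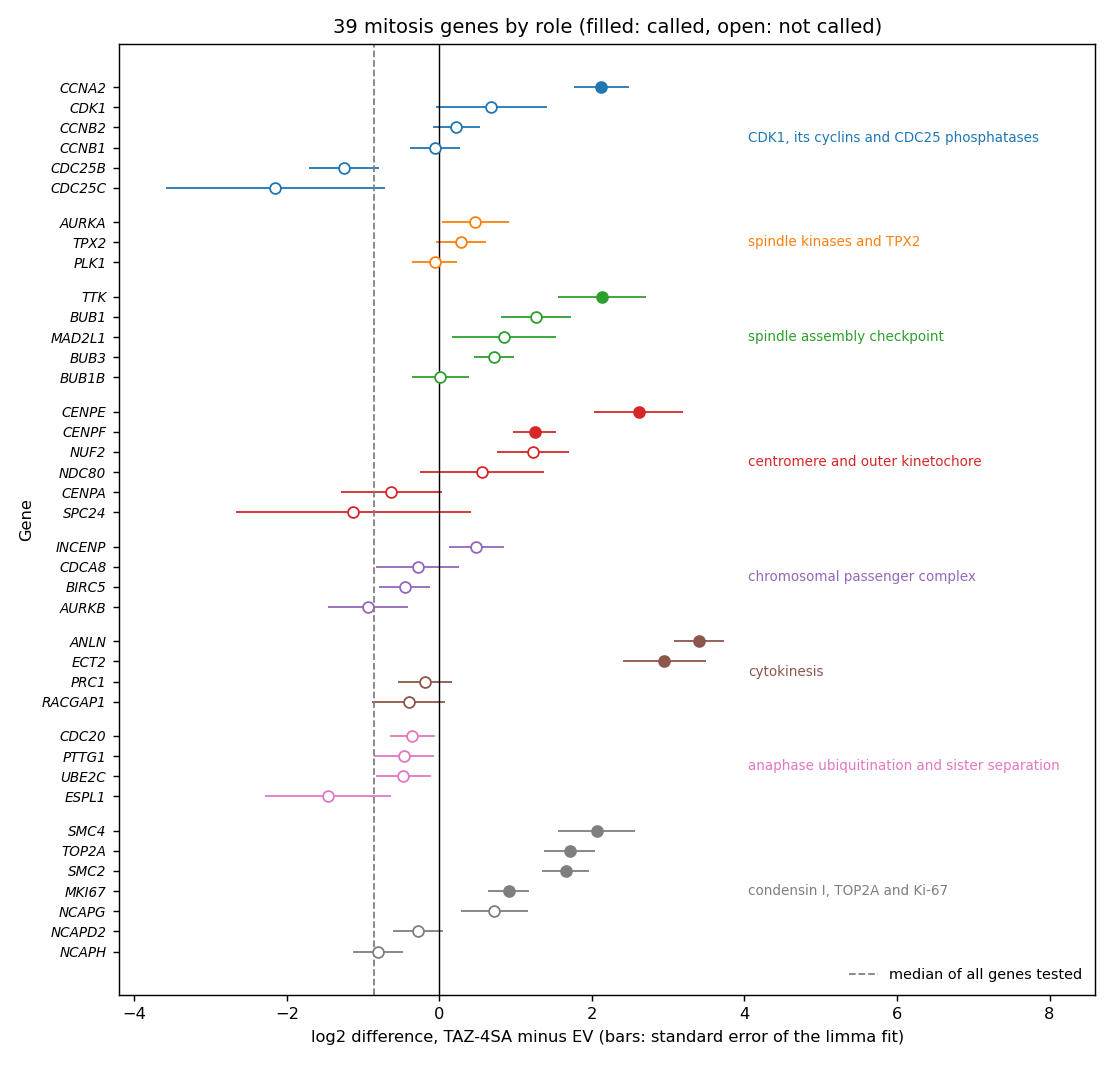
The horizontal axis gives the log2 difference of TAZ-4SA minus EV for the 39 members tested, with bars for the standard error, grouped by role. Filled points are the 10 members called higher, at 0.91 to 3.40, and the dashed line is the median of all genes tested, at -0.85.

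CDK1, its cyclins and the CDC25 phosphatases gave 1 call among 6 genes, with a median log2 difference of 0.08. CCNA2, cyclin A2, which partners CDK2 and CDK1 in S and G2 phase (chromosome 4, 121816444 to 121823883, GRCh38, minus strand), ran from 46.5 CPM in TAZ-4SA tumour 4 through a median of 84.2 to 100.3 CPM in tumour 6. The EV tumours stood at 18.1, 18.02 and 16.2 CPM. Every TAZ-4SA tumour was thus above every EV tumour. The log2 difference was 2.12 ± 0.36 (SE, limma adjusted p = 0.00168). EXOSC9 overlaps CCNA2 on the other strand, and the library kit does not keep strand, so reads where they overlap cannot be told apart. The same holds for the members below with a named overlap, and for CDC25C (FAM53C), PLK1 (ERN2), RACGAP1 (AQP6), NCAPG (LCORL) and NCAPD2 (MRPL51).

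CDK1, the kinase of mitotic entry, varied widely between tumours (it, CDC25C and CDC25B were chosen for display after their values were seen). Its TAZ-4SA values were 118, 125, 8.17, 41.3, 34.4 and 62.0 CPM in tumours 1 to 6, and its EV values 32.8, 30.5 and 25.0 CPM. It was above all EV tumours in 5 tumours and far below them in tumour 3, with a log2 difference of 0.68 ± 0.73 (limma adjusted p = 0.512), and 1.18 without tumour 3 (limma adjusted p = 0.0919). CDC25C, the phosphatase that activates CDK1 at mitotic entry, ran from 0 to 14.4 CPM in TAZ-4SA with a median of 9.52, and stood at 24.6, 24.2 and 19.5 CPM in EV. All 6 tumours lay below EV, and tumour 3 had 0 reads, which allows up to 0.184 CPM. Its log2 difference was -2.15 ± 1.44 (limma adjusted p = 0.292), and -1.12 without tumour 3 (limma adjusted p = 0.174).

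CDC25B, the phosphatase that starts CDK1 activation at centrosomes, ran from 53.9 to 257 CPM in TAZ-4SA with a median of 82.7, against 207, 244 and 225 CPM in EV. Tumour 3 was the only one above EV. The log2 difference was -1.25 ± 0.46 (limma adjusted p = 0.0707), and without tumour 3 it was -1.54 and called lower (limma adjusted p = 0.0104). The B cyclins, CDK1's mitotic partners, had log2 differences of -0.05 ± 0.33 for CCNB1 (89.6 ± 28.9 CPM in TAZ-4SA, 89.5 ± 6.92 CPM in EV) and 0.22 ± 0.31 for CCNB2 (72.3 ± 14.0 and 61.8 ± 12.7 CPM). The sign for CCNB1 turned with quantile normalization, to 0.042. Thus cyclin A2 passed the test and neither B cyclin did. The difference between them was not tested.

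None of the 3 spindle kinase genes was called. TPX2, which targets Aurora A to the spindle and activates it (chromosome 20, 31739290 to 31801800, GRCh38, plus strand), ran from 172 CPM in TAZ-4SA tumour 3 through a median of 243 to 493.04 CPM in tumour 1. Its EV values were 232, 232 and 209 CPM, inside that range, and its log2 difference was 0.28 ± 0.33 (limma adjusted p = 0.557). AURKA, the centrosomal Aurora kinase, had a log2 difference of 0.47 ± 0.44. PLK1, the Polo kinase of mitotic entry and centrosome maturation, had 95.3 ± 20.4 CPM with TAZ-4SA and 97.8 ± 12.3 CPM in EV, a log2 difference of -0.06 ± 0.29 whose sign turned to 0.038 with quantile normalization.

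All 5 spindle assembly checkpoint genes had a log2 difference above 0 (median 0.85), and 1 of them was called. Their transcripts had 39.4 to 43.2% GC, and the median over all genes was 0.81 below 40% GC and 0.16 from 40 to 45%. With a trend in GC content removed, BUB1B, BUB3 and MAD2L1 turned negative and TTK was not called. TTK, the MPS1 kinase that starts the checkpoint signal at kinetochores (chromosome 6, 80004649 to 80042527, GRCh38, plus strand), ran from 16.8 CPM in TAZ-4SA tumour 5 through a median of 62.0 to 128 CPM in tumour 2. In EV it stood at 12.2, 12.1 and 15.0 CPM. The groups did not overlap, although tumour 5 was close to EV. The log2 difference was 2.13 ± 0.58 (limma adjusted p = 0.0202), and the call ended when EV replicate 1, 2 or 3 was left out (limma adjusted p = 0.0739, 0.0762 and 0.0535) and without TAZ-4SA tumours 2, 3 and 4 together (limma adjusted p = 0.0926).

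BUB1, a checkpoint kinase that also marks centromeric chromatin, and BUB3, its kinetochore adaptor, were near the threshold. BUB1 had 103 ± 45.5 CPM with TAZ-4SA and 38.9 ± 7.60 CPM in EV, a log2 difference of 1.27 ± 0.46 (limma adjusted p = 0.0662). BUB3 had 125 to 199 CPM in TAZ-4SA and 84.2, 80.2 and 99.7 CPM in EV, without overlap, and a log2 difference of 0.72 ± 0.26 (limma adjusted p = 0.0689). Without TAZ-4SA tumour 5 both were called, BUB1 at 1.55 (limma adjusted p = 0.0073) and BUB3 at 0.76 (limma adjusted p = 0.0322). MAD2L1, which encodes the MAD2 inhibitor of CDC20, spread from 11.1 to 139 CPM in TAZ-4SA around a log2 difference of 0.85 ± 0.68. BUB1B, the BUBR1 subunit of the checkpoint complex, was at 0.01 ± 0.37, with 62.0 ± 19.6 CPM with TAZ-4SA and 58.4 ± 3.02 CPM in EV, and turned to -0.077 with median-of-ratios scaling.

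At the centromere and outer kinetochore, 2 of 6 tested genes were called, both of them large coiled-coil proteins, and the median log2 difference was 0.89. Neither was called with a trend in GC content removed. CENPE, a kinesin that moves chromosomes to the spindle equator (chromosome 4, 103105811 to 103198343, GRCh38, minus strand), ran from 22.1 CPM in TAZ-4SA tumour 5 through a median of 67.2 to 180 CPM in tumour 4. In EV it stood at 11.99, 11.8 and 9.74 CPM. No TAZ-4SA tumour reached down to EV, and the log2 difference was 2.61 ± 0.59 (limma adjusted p = 0.00782). CENPF, which links kinetochores to dynein regulators and is itself a G2 marker (chromosome 1, 214603195 to 214664571, GRCh38, plus strand), ran from 211 CPM in tumour 3 through 382 to 434 CPM in tumour 1, against 148, 156 and 119 CPM in EV. The groups were again apart, at a smaller log2 difference of 1.25 ± 0.28 (limma adjusted p = 0.00799).

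The NDC80 complex, which holds microtubule ends, has 4 subunits, and none was called. NUF2 had a log2 difference of 1.23 ± 0.48 (limma adjusted p = 0.0826) and passed once TAZ-4SA tumour 5 was left out (1.46, limma adjusted p = 0.0230). NDC80 had 0.56 ± 0.81, its TAZ-4SA values spreading from 6.16 to 72.4 CPM around EV values of 13.3 to 15.5 CPM. SPC24 had 33.9, 40.5, 29.6, 0, 32.5 and 20.5 CPM in TAZ-4SA tumours 1 to 6 and 29.8, 30.4 and 22.8 CPM in EV. Tumour 4 had 0 reads of SPC24, which allows up to 0.108 CPM, and the log2 difference of -1.13 ± 1.54 turned to 0.16 without it. SPC25 was below the filter, with 0 reads in all 6 TAZ-4SA tumours and 7, 9 and 1 reads in EV, so no fold is given. It overlaps NOSTRIN and G6PC2 on the other strand, and NUF2 likewise overlaps RGS5. CENPA, the histone H3 variant of centromeres, was at -0.63 ± 0.66.

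Among the 4 genes of the chromosomal passenger complex, which corrects chromosome attachment and then moves to the cleavage site, none was called and the median log2 difference was -0.37. BIRC5, survivin (chromosome 17, 78214253 to 78225635, GRCh38, plus strand), ran from 88.3 CPM in TAZ-4SA tumour 6 through a median of 149 to 272 CPM in tumour 3. In EV it stood at 197, 196 and 224 CPM. Thus 5 TAZ-4SA tumours lay below EV and 1 above, with a log2 difference of -0.45 ± 0.33 (limma adjusted p = 0.335). AURKB, the kinase of the complex, had -0.94 ± 0.53, with 4 tumours below EV and tumour 3 above. CDCA8, borealin, had -0.28 ± 0.54. INCENP, the scaffold, had 0.48 ± 0.36 with 5 of 6 tumours above EV, the only positive value of the 4.

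Cytokinesis held the largest differences of the set, in 2 of 4 genes. ANLN, anillin, the scaffold that joins actin, myosin and septins in the contractile ring (chromosome 7, 36389862 to 36453791, GRCh38, plus strand), stood at 468, 342, 289.8, 736, 287 and 418 CPM in TAZ-4SA tumours 1 to 6. In EV it stood at 35.5, 33.7 and 44.6 CPM. The lowest TAZ-4SA tumour was thus far above the highest EV tumour. The means were 423 ± 169 and 37.9 ± 5.85 CPM (SD), and the log2 difference was 3.40 ± 0.32, a 10.6-fold ratio (limma adjusted p = 2.8e-05). KIAA0895 overlaps it on the other strand. ECT2, the exchange factor that activates RhoA at the equator (chromosome 3, 172750726 to 172829265, GRCh38, plus strand), ran from 28.0 CPM in tumour 3 through 85.2 to 201 CPM in tumour 2, against 11.0, 10.7 and 9.35 CPM in EV. Its groups were apart as well, with a log2 difference of 2.95 ± 0.54 (limma adjusted p = 0.00249).

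Of the partners of ECT2 at the central spindle, RACGAP1 and PRC1 did not pass the test and KIF23 did. RACGAP1, which recruits ECT2 as part of centralspindlin, had 63.9 ± 34.9 CPM with TAZ-4SA and 73.6 ± 5.43 CPM in EV, a log2 difference of -0.40 ± 0.48. PRC1, which bundles the antiparallel microtubules of the midzone, had 134 ± 50.4 and 143 ± 14.2 CPM, a difference of -0.18 ± 0.35. KIF23, the kinesin subunit of centralspindlin and not among the 40, was called higher (191 ± 35.2 and 49.6 ± 9.92 CPM, log2 difference 1.94 ± 0.27, limma adjusted p = 0.000534). Within this step the calls therefore fell on the ring scaffold, the RhoA activator and 1 of the 2 centralspindlin genes.

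The 4 genes of anaphase ubiquitination and sister separation all had log2 differences below 0 (median -0.47), and none was called. Over all 15578 genes tested, 10495 lay below 0 and the median was -0.85. Of these 4 genes, 3 lay above that median. CDC20, the activator of the anaphase-promoting complex (chromosome 1, 43358981 to 43363203, GRCh38, plus strand), ran from 100.4 CPM in TAZ-4SA tumour 4 through a median of 149.6 to 197 CPM in tumour 5. In EV it stood at 153, 207 and 198 CPM. In TAZ-4SA, 4 of 6 tumours lay below all EV tumours and none above, with a log2 difference of -0.35 ± 0.30 (limma adjusted p = 0.406). UBE2C, the ubiquitin-conjugating enzyme of the complex, was at -0.47 ± 0.36, and PTTG1, securin, at -0.46 ± 0.39. ESPL1, separase, which cuts cohesin, was at -1.46 ± 0.83, and its TAZ-4SA values of 7.97 to 178 CPM spanned those of EV (73.0 to 119 CPM). After a trend with transcript length was removed, CDC20, UBE2C and PTTG1 turned to 0.27, 0.09 and 0.14, still not called. CDC20 also turned positive, without a call, when a trend with GC content was removed.

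Condensin I, TOP2A and Ki-67, the proteins that shape mitotic chromosomes, gave 4 calls among 7 genes, with a median log2 difference of 0.91. Over all genes tested, 9.02% were called higher. SMC2, SMC4 and TOP2A had a transcript GC content of 37.3 to 39.1%, and below 40% GC 25.1% of all genes were called higher. With a trend in GC content removed, MKI67 was the only one of the 4 still called. SMC2, an ATPase arm shared by both condensins (chromosome 9, 104088263 to 104141419, GRCh38, plus strand), ran from 66.99 CPM in TAZ-4SA tumour 3 through a median of 77.6 to 116 CPM in tumour 1, against 25.6, 25.8 and 24.4 CPM in EV. Its groups were well apart, with a log2 difference of 1.66 ± 0.31 (limma adjusted p = 0.00295). SMC4, the other arm (chromosome 3, 160399650 to 160434953, GRCh38, plus strand), ran from 58.5 CPM in tumour 5 through 262 to 416 CPM in tumour 2, against 50.5, 53.0 and 52.4 CPM. Tumour 5 stood just above EV, and the log2 difference was 2.07 ± 0.51 (limma adjusted p = 0.0121), not called without tumours 2, 3 and 4 together (limma adjusted p = 0.0859). IFT80 and TRIM59 overlap SMC4 on the other strand.

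TOP2A, the topoisomerase that untangles sister chromatids (chromosome 17, 40388525 to 40417896, GRCh38, minus strand), ran from 138 CPM in TAZ-4SA tumour 2 through a median of 246 to 378 CPM in tumour 1, against 80.1, 78.7 and 53.5 CPM in EV. Its lowest TAZ-4SA value was above its highest EV value, and the log2 difference was 1.71 ± 0.34 (limma adjusted p = 0.00372). MKI67, which encodes Ki-67, the coat of mitotic chromosomes (chromosome 10, 128096659 to 128126423, GRCh38, minus strand), was displayed after its values were seen. It ran from 402 CPM in tumour 5 through 649.6 to 785 CPM in tumour 6, against 334, 344 and 294.9 CPM in EV, with a log2 difference of 0.91 ± 0.27 (limma adjusted p = 0.0286). This was the smallest of the called differences and the least steady call. It ended when TAZ-4SA replicate 1, 4 or 6 was left out (limma adjusted p = 0.0576, 0.0547 and 0.0556) and when EV replicate 1, 2 or 3 was (limma adjusted p = 0.1002, 0.0912 and 0.109).

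The regulatory subunits of condensin I did not share the calls of its ATPase arms. NCAPG had 34.9 ± 11.6 CPM with TAZ-4SA and 20.2 ± 1.24 CPM in EV, a log2 difference of 0.72 ± 0.44. NCAPD2 had 159 ± 48.1 and 194 ± 63.4 CPM, a difference of -0.28 ± 0.33. NCAPH, the kleisin that closes the ring, stood at 31.0 to 60.9 CPM in TAZ-4SA and at 100.2, 90.4 and 76.4 CPM in EV. All 6 TAZ-4SA values of NCAPH lay below EV, with a log2 difference of -0.80 ± 0.33 that missed the threshold (limma adjusted p = 0.0975). Genes of 1 complex thus had measured differences on both sides of 0.

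**Figure D2:**
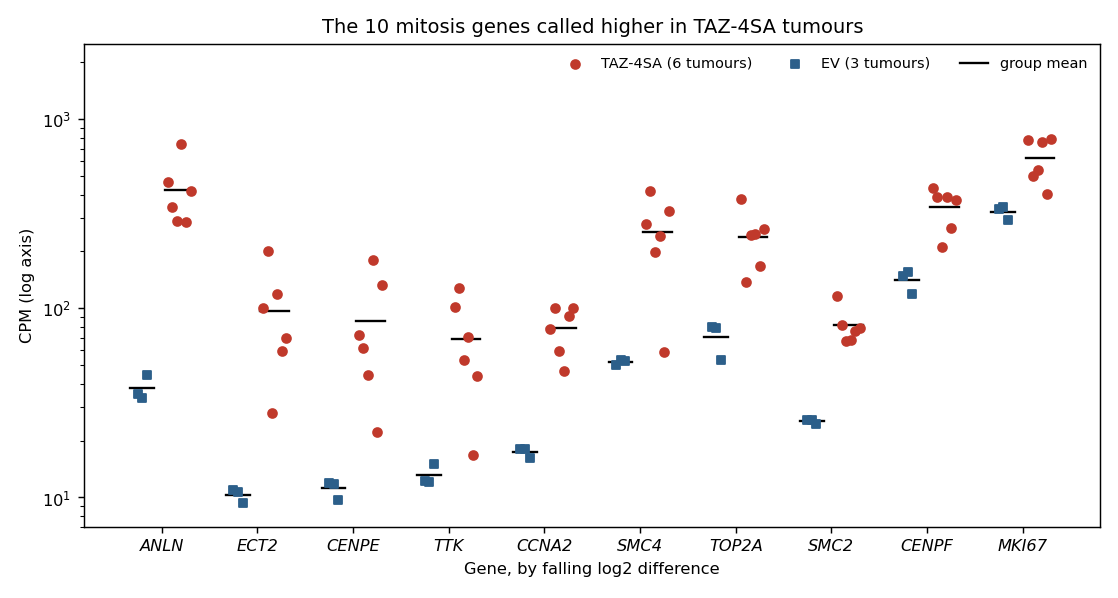
The vertical axis (log scale) gives CPM in each of the 6 TAZ-4SA tumours (circles) and 3 EV tumours (squares) for the 10 members called higher, with bars at the group means. No TAZ-4SA point lies at or below an EV point of the same gene, and TTK and SMC4 come closest, at 16.8 and 58.5 CPM in TAZ-4SA tumour 5.

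Summed over the 10 called members, the level was 2300 ± 585 CPM (SD, n = 6) in TAZ-4SA, from 1444 to 2859, and 703 ± 55.8 CPM (SD, n = 3) in EV. The other 30 members summed to 2493 ± 310 CPM and 2526 ± 112.5 CPM, with overlapping ranges of 2148 to 3022 and 2413 to 2638. The called members were chosen by this contrast, so these sums describe it and test nothing. Tumour by tumour, the median member stood above the mean of the EV tumours by 0.17 (tumour 5) to 0.54 (tumour 1) on the log2 scale, while the median of all genes ran from -1.21 (tumour 2) to -0.18 (tumour 5). Every TAZ-4SA tumour thus had a member median above its all-gene median, by 0.35 to 1.45. The median SD of log2 values across tumours was 0.59 over members and 1.5 over all genes in TAZ-4SA, and 0.165 and 0.274 in EV. All 39 members had a mean of at least 10 CPM, while all genes tested reached down to 1 CPM, and the comparison was not matched by level.

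Tumour 1 held the highest value of the group for 11 of 39 members and the lowest for none. Tumour 2 held the highest for 10 and the lowest for 10, and tumour 3 the highest for 7 and the lowest for 11. Tumour 5 held the lowest for 9, including TTK, CENPE, SMC4 and ANLN. It also had the second-highest neuronal marker sum (858 CPM, after 1330 CPM in tumour 6) and the highest oligodendrocyte sum, and the part of these cells in its lower values was not tested. Without tumours 5 and 6, 13 members were called higher, against 9.31% of all genes, and none lower, against 17.7%. Without tumours 2, 3 and 4, those with the largest numbers of undetected genes, 7 were called higher (ANLN, CCNA2, CENPE, CENPF, ECT2, SMC2 and TOP2A), against 12.2% of all genes, and 1 lower (CDC25B), against 14.5%.

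**Figure D3:**
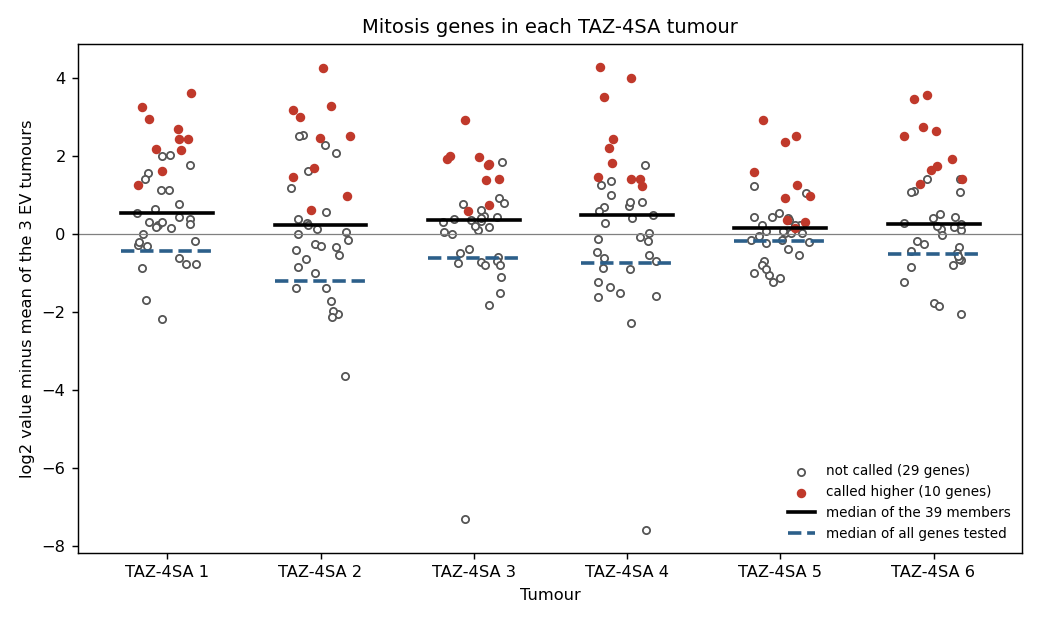
Each point is 1 member's log2 value in 1 TAZ-4SA tumour minus the mean of the 3 EV tumours, filled for the 10 called members, with bars for the median of the 39 members and dashed bars for all genes tested. Member medians lie between 0.17 and 0.54 and all-gene medians between -1.21 and -0.18. The lowest points are CDC25C in tumour 3 and SPC24 in tumour 4, both at 0 reads.

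The differences followed transcript composition. Across the 39 members, the log2 difference correlated with the GC content of the longest coding transcript at Pearson r = -0.71 and Spearman rho = -0.77, and across 13954 genes at -0.47 and -0.52. These are descriptions across genes that share the same 9 libraries. The called members had a median GC content of 39.6% (35.3 to 48.3%) and the other tested members 47.6% (37.0 to 59.6%). Below 40% GC, 5 of 9 members were called higher, against 25.1% of all genes in that range. From 40 to 45% it was 4 of 11, against 15.9%, and from 45 to 50% 1 of 8 (MKI67), against 8.0%. Above 50% GC none of 11 members was called, where 4.5% and 2.2% of genes were called higher between 50 and 55% and above 55%. CDC20, UBE2C, PTTG1 and ESPL1 lay at 49.3 to 57.9% GC. Length moved the same way, with r = 0.46 and rho = 0.52 over members and 0.21 and 0.25 over all genes, and median lengths of 5614.5 bases for called and 2503 bases for other members.

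When a smooth trend with GC content was removed from each tumour, a step added after seeing the data, 4 members were higher (ANLN, ECT2, INCENP and MKI67) and 1 was lower (NCAPH), against 5.87% and 9.21% of all genes. The log2 difference of ANLN was then 2.07 (limma adjusted p = 0.000257), of ECT2 1.37 (0.0346), of INCENP 1.69 (0.0024) and of MKI67 0.81 (0.0419). CCNA2 kept 1.10 but was not called (limma adjusted p = 0.0714), and CENPE (0.75), TTK (0.90), SMC4 (0.40), TOP2A (0.25), CENPF (0.03) and SMC2 (0.02) were not called either. WWTR1 itself moved from 1.44 to 0.22 and was no longer called (limma adjusted p = 0.698). The member median became -0.07, beside -0.73 for all genes. With a length trend removed instead, 8 members were called higher, NUF2 among them, and none lower, against 7.24% and 13% of all genes, and MKI67 (-0.17), CENPF (0.23) and CENPE (1.67) were not.

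**Figure D4:**
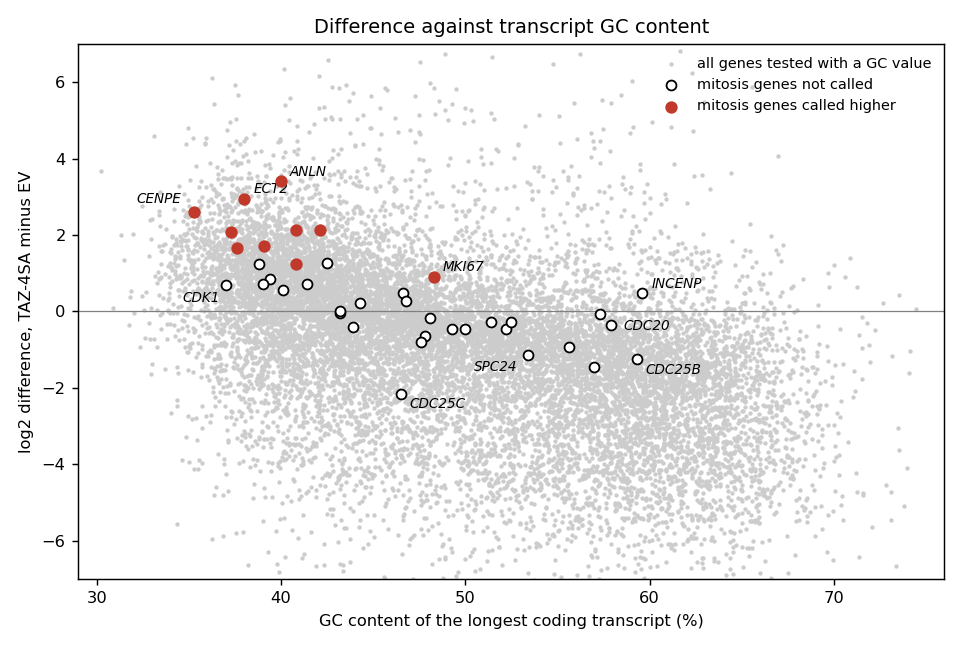
The horizontal axis gives transcript GC content in percent and the vertical axis the log2 difference of TAZ-4SA minus EV, for all genes (grey; 113 lie outside the range shown) and for the 39 members (filled where called higher). Called members lie between 35.3 and 48.3% GC, and members above 50% GC lie at or below 0.48.

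Beyond the 40 genes, lists of related genes from the same fit show which neighbours of these steps differed, and their counts stand beside the 9.02% and 13.3% of all genes called higher and lower. Of the 32 genes called in these lists, 6 kept the call with the GC trend removed (KIF23, CEP55, E2F7, GADD45A, MCM3 and MCM7). Of 11 mitotic kinesins tested, 4 were higher and 1 lower (median 0.67). Besides KIF23, they were KIF20B (log2 difference 2.67 ± 0.44, limma adjusted p = 0.00133) and KIF14, which acts with citron kinase in abscission (2.67 ± 0.46, 0.00173). Also called higher was KIF18A, which dampens chromosome oscillation, and it and TUBB4B are named here after their values were seen. KIF22, the chromokinesin, was lower, at 45.8 ± 19.7 CPM with TAZ-4SA and 183 ± 1.66 CPM in EV (-2.13 ± 0.42, 0.0037). Of 18 spindle, centrosome and midbody genes, 5 were higher and 1 (TUBB4B) lower, with a median of 0.84. They included CEP55, the abscission scaffold of the midbody (91.4 ± 30.01 and 18.01 ± 2.34 CPM), HMMR, and ASPM, which focuses spindle poles (149 ± 59.6 and 35.7 ± 2.45 CPM).

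Cohesin, its regulators and condensin II gave 8 higher and 0 lower of 18 (median 1.18), where 9 and 2 had an unadjusted p under 0.05. The 8 had a GC content of 34.7 to 41.3%, a range where many genes were called higher (25.1% of all genes below 40% GC and 15.9% from 40 to 45%), and none of the 8 was called with the GC trend removed. The 4 with the smallest p were STAG2, a core cohesin subunit (139 ± 34.04 and 26.9 ± 3.64 CPM), PDS5A and WAPL, which control cohesin release, and RAD21, the kleisin that separase cuts (149 ± 30.3 and 65.7 ± 0.596 CPM), whose call ended when EV replicate 1 or 2 was left out (limma adjusted p = 0.0615 and 0.0611). With the GC trend removed, RAD21 turned to -0.08 and STAG2, PDS5A and WAPL had 0.60, 0.51 and 0.43. Of 29 other kinetochore genes, 0 were higher and 1 was lower, with 3 and 4 at an unadjusted p under 0.05 and a median of -0.45. That 1 was CENPT (-2.12 ± 0.64, limma adjusted p = 0.0321), not called without TAZ-4SA replicate 1 or 6 or any EV replicate (limma adjusted p = 0.0601 to 0.128). Of 17 genes of the anaphase-promoting complex and its partners, 1 was higher (CDC27, a scaffold subunit, log2 difference 1.82 ± 0.39, limma adjusted p = 0.00586) and 0 lower, with 1 and 4 at an unadjusted p under 0.05 and a median of -0.76. FZR1, the CDH1 activator that follows CDC20, was at -1.48 ± 0.76.

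The transcription regulators of the G2/M programme gave calls in both directions. Of 22 tested, 3 were higher and 1 lower, with a median of -0.48. LIN54, the CHR-binding subunit of MuvB, was higher, at 39.9 ± 10.4 CPM with TAZ-4SA and 7.80 ± 2.52 CPM in EV (log2 difference 2.34 ± 0.48, limma adjusted p = 0.00464), as were the pocket protein gene RB1 (2.16 ± 0.48) and the repressor gene E2F7 (3.02 ± 0.68). E2F1, an activator of G1/S genes, was lower (-2.07 ± 0.55, limma adjusted p = 0.0188), a call that ended when EV replicate 1, 2 or 3 was left out (limma adjusted p = 0.0593, 0.0527 and 0.0850). FOXM1 stood at 150.4 ± 47.0 CPM with TAZ-4SA and 209 ± 20.4 CPM in EV and was not called (-0.53 ± 0.31, limma adjusted p = 0.227). MYBL2 was below EV in all 6 tumours and just outside the threshold (-1.07 ± 0.36, limma adjusted p = 0.0533), passing it when TAZ-4SA tumour 3 or 5 was left out (limma adjusted p = 0.022 and 0.0322). With the GC trend removed, FOXM1 and MYBL2 turned to 0.27 and 0.24, and RB1, LIN54 and E2F1 were no longer called.

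Of 18 G2 checkpoint and CDK1 regulator genes, 3 were higher and 0 lower, with 4 and 1 at an unadjusted p under 0.05 and a median of -0.66. WEE1, the kinase that holds CDK1 inactive, stood at 48.7 ± 18.3 CPM with TAZ-4SA and 17.5 ± 4.28 CPM in EV (log2 difference 1.41 ± 0.44, limma adjusted p = 0.0367). Its call was lost without TAZ-4SA replicate 1 or 6 or any EV replicate (limma adjusted p = 0.0576 to 0.163). ARPP19, an inhibitor of the phosphatase that opposes CDK1 (1.38 ± 0.31), and GADD45A, a stress gene that inhibits CDK1 (2.62 ± 0.57, with overlapping groups), were also higher. Leaving out EV replicate 2 ended the ARPP19 call (limma adjusted p = 0.0511). CDKN1A, the p21 inhibitor, was at 1.14 ± 0.58 and not called. Of 20 S phase genes, 1 was higher and 3 were lower (median -1.12). RRM2, a ribonucleotide reductase subunit that lasts into G2, was higher (1.05 ± 0.28), and the replicative helicase genes MCM7 (-1.99 ± 0.33), MCM3 (-1.25 ± 0.24) and MCM5 (-1.70 ± 0.42) were lower. Leaving out EV replicate 1 or 2 ended the RRM2 call (limma adjusted p = 0.103 and 0.110), and leaving out EV replicate 1 or 3 that of MCM5 (limma adjusted p = 0.0519 and 0.0548).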

How the data were processed

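Libraries were made from TRIzol-extracted total RNA with a SMART-Seq and Nextera XT workflow, per the labels' protocols, a chemistry that does not keep strand. HISAT2, edgeR and GRCh38 are named in the submitters' processing notes, without roles. How reads were counted, on which annotation, and whether mouse reads were separated is not given in the labels or notes. For all samples in 1 table, the authors deposited log2 CPM with a prior of 0.145 CPM, a unit read from the values, and 100% of values up to 5000 reads came back as whole reads within 0.1 read. No other replicate pair was closer than EV 1 and EV 2 (chi-square per degree of freedom 18.56), so all 9 tumours were counted.

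The limma 3.58.1 fit (R 4.3.3; trend and robust options) used the deposited log2 values of the 15578 genes whose mean reached 1 CPM, two-sided, with Benjamini-Hochberg adjustment at 0.05 over all genes. CPM values are given after removing the prior. Fold changes are on the log2 scale with the prior, which understates changes between low values. A single tumour at 0 reads can enlarge a difference, as for SPC24 and CDC25C. The fit was run on simulated reads with known changes. The simulation did not model the many genes without reads in TAZ-4SA tumours, so it checks the code and not these data. The labels do not tie tumours to animals, so the p-values reflect only how these samples vary, which may be technical. Floors of 3 reads cover counting error only. The members and lists were chosen with earlier results of these data known. The text names all 40 members, up to 4 called genes with the smallest p per related list, FOXM1, MYBL2, FZR1, CDKN1A, WEE1 and WWTR1. Values by tumour are shown for called members (up to 3 per role, by smallest p) or, where a role has none, for the one with the highest mean CPM, and others shown were chosen after their values were seen. Lengths and GC contents come from the longest GENCODE 29 protein-coding transcript, and strand overlaps from the same annotation. Coordinates come from a RefSeq gene table of GRCh38, which matched 18136 of the 18364 identifiers, and 224 genes had no symbol. Matplotlib 3.10.9 drew the figures. Alternatives covered pseudocounts, scaling, filters, weights, variance moderation, limma-voom, left-out tumours, the replicate number as a block and, added after seeing the data, trends with GC content and length and limma-voom without weights.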

Additional observations from a re-analysis of the deposited data

Results flagged for a closer look

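Outlying tumours were looked for among the 6 TAZ-4SA tumours of 70 genes, as an end value whose gap to its neighbour exceeded 0.625 of the group's range on the log2 scale. Chance flags about 1 in 20 groups, and 5 genes were found, 4 of them members. CDC25C in TAZ-4SA tumour 3 had 0 CPM, a gap of 0.856 of the range. SPC24 in TAZ-4SA tumour 4 had 0 CPM, a gap of 0.88. NCAPH, the condensin kleisin, was low in TAZ-4SA tumour 3 at 31.0 CPM, a gap of 0.644. SMC2 was high in TAZ-4SA tumour 1 at 116 CPM, a gap of 0.631. Outside the 40 genes, E2F7 was low in TAZ-4SA tumour 3 at 12.1 CPM, a gap of 0.684.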

How the results depend on the processing

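Of 25 alternatives, ANLN was called higher in each, and the other called members lost it in 2 to 10. No member was called lower by limma as reported, and 1 was with median-of-ratios scaling, limma-voom without weights and TAZ-4SA tumours 2, 3 and 4 left out (CDC25B), with no filter (SPC25) and with the GC trend removed (NCAPH), and 5 with array weights or weighted limma-voom (AURKB, BIRC5, CDC25B, ESPL1 and NCAPH). The number of genes called lower was 3384 with no filter, 967 with a filter at 10 CPM, 5630 with array weights, 4914 with weighted and 3646 with unweighted limma-voom. The number of genes called higher was 2531 with array weights and 2544 with weighted limma-voom. With each tumour left out, genes called higher ranged from 799 to 1685, genes called lower from 852 to 2688, members higher from 8 to 13 and members lower from 0 to 1. The planned edgeR test was not run, and limma-voom on the recovered reads was the only alternative fitted to reads. The cause of these changes was not tested, except that a filter changes how many genes are tested and a left-out tumour how many samples.

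Same-numbered tumours correlated at 0.031, 0.004 and -0.047, and not every sample correlated best with its own number, so the labels' numbers were not taken to pair tumours. Replicate numbers 4, 5 and 6 occur only in TAZ-4SA, so a block by number leaves those tumours out of the group difference. With the replicate block, the number of genes called higher was 604 and 7 members were higher (ANLN, BUB1, CCNA2, CENPE, SMC2, SMC4 and TTK), CCNB1 was 0.218 and SPC24 0.324. With the GC trend removed, genes called higher were 819 and genes called lower 1285, 4 members were higher and 1 lower, and the median member was -0.068. With the block and the GC trend removed together, genes called higher were 462 and genes called lower 1328, 2 members (ANLN and INCENP) were higher and the median member was 0.033. Quantile normalization gave CCNB1 0.042 and PLK1 0.038, median-of-ratios scaling BUB1B -0.077, array weights CCNB1 0.025, CDCA8 0.058 and PRC1 0.077, and weighted limma-voom PRC1 0.067. With each tumour left out in turn, BUB1B ran from -0.082 to 0.21, CCNB1 from -0.175 to 0.057, PLK1 from -0.164 to 0.048, CDCA8 from -0.429 to 0.083 and SPC24 from -1.467 to 0.159. Without tumours 2, 3 and 4, CCNB1 was 0.059, PLK1 0.050, BUB1B -0.082, SPC24 0.042, CDCA8 0.358 and PRC1 0.103, and without 5 and 6 CCNB1 was 0.009. The GC trend removed turned CDK1 to -1.015, CCNB2 to -0.433, PLK1 to 0.928, TPX2 to -0.012, BUB1B to -0.833, BUB3 to -0.422, MAD2L1 to -0.572, NDC80 to -0.766, NUF2 to -0.266, CDCA8 to 0.022, CDC20 to 0.697, NCAPD2 to 0.159, NCAPG to -0.748, RAD21 to -0.081, ARPP19 to -0.334, FOXM1 to 0.274, MYBL2 to 0.237 and FZR1 to 0.121. The length trend removed turned CCNB1 to 0.458, PLK1 to 0.436, BUB1B to -0.089, BUB3 to -0.174, CENPA to 0.014, CDCA8 to 0.129, CDC20 to 0.271, UBE2C to 0.085, PTTG1 to 0.137 and MKI67 to -0.174. Block and GC trend removed together turned CDK1 to -0.941, CCNB2 to -0.256, CDC25B to 0.080, PLK1 to 0.947, BUB1B to -0.617, BUB3 to -0.318, MAD2L1 to -0.364, CENPF to -0.020, NDC80 to -0.781, SPC24 to 0.896, AURKB to 0.030, BIRC5 to 0.156, CDC20 to 0.936, NCAPD2 to 0.247, NCAPG to -0.968, RAD21 to -0.150, ARPP19 to -0.389, FOXM1 to 0.139, MYBL2 to 0.407 and FZR1 to 0.825. Depth limits tumours 5 and 6 most, where 3 reads are 0.840 and 0.917 CPM.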
